A study of Homo sapiens with 2 samples.

Results

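The MEF2 factors (MEF2A, MEF2B, MEF2C and MEF2D) and the class IIa histone deacetylases (HDAC4, HDAC5, HDAC7 and HDAC9) were compared between SUDHL6 and HT, 2 established human cell lines of diffuse large B cell lymphoma. These 8 genes were chosen by name, with earlier results of the same arrays known. A gene was measured on its own where a probe set (the probes along its exons, summarised as 1 value) named that gene and no other in the platform annotation. This held for 6 of the 8 genes, among 14232 genes with such a value. MEF2A and MEF2B had only probe sets that name several genes, and these are given apart. Both lines were untreated, were grown in the same serum-supplemented RPMI medium and were each represented by 1 Affymetrix exon array. Each line stands for 1 tumour in culture, so a difference between them describes these cultures and not types of lymphoma.

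MEF2 factors are transcription factors of the MADS-box family that bind A/T-rich sites and are best known for switching on muscle genes. Class IIa deacetylases have little deacetylase activity of their own. They bind the DNA-binding end of MEF2 factors and bring in the NCOR co-repressor complex with HDAC3, which keeps MEF2 sites silent. Calcium signals, through CaM kinases and protein kinase D, phosphorylate the deacetylases, which then bind 14-3-3 proteins and leave the nucleus. In mouse B cells MEF2C is known to be needed for normal proliferation after stimulation of the B cell receptor, and MEF2B is known to activate BCL6 in germinal centre B cells and to be mutated in some lymphomas.

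All values are log2 values after RMA. A dim limit, the 95th percentile of 225 olfactory receptor genes assumed to be unused in lymphoma cells, was 3.81 in SUDHL6 and 4.11 in HT. Genes were counted as different when the log2 values lay at least 1 apart and the line with the higher value was at or above its dim limit. With 1 array per line there were no replicates, so no test was made and no error could be given. As a stand-in, the differences of the olfactory receptor genes had a standard deviation of 0.63, and 17 of the 225 were at least 1 apart. Each array averaged a whole culture, so fewer cells with a transcript and less transcript per cell cannot be told apart. The B cell identity of the lines was checked on 6 markers with a value, of which all 6 passed the dim limit. PAX5, the factor that maintains B cell identity, stood at 7.00 in SUDHL6 and 7.63 in HT, and CD79A, a chain of the B cell receptor, at 6.47 in SUDHL6 and 6.58 in HT. MS4A1, which encodes CD20, was 6.01-fold higher in SUDHL6. The T cell markers CD3D, CD3E and CD2 lay below the dim limit in both lines, as did the myeloid markers CD14, LYZ and CSF1R. The T cell marker CD7 (5.49 in SUDHL6, 5.73 in HT) and the myeloid marker CD68 (5.53 in SUDHL6, 5.95 in HT) passed it in both lines. CD5 did so in SUDHL6 (3.84 in SUDHL6, 3.77 in HT). Passing the limit thus does not by itself show that a marker was expressed. The B cell markers CD79B (5.55 in SUDHL6, 5.23 in HT) and BLK (5.63 in SUDHL6, 5.97 in HT) stood near the level of CD7 and CD68. CD22 stood higher, at 9.13 in SUDHL6 and 8.55 in HT.

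MEF2C was lower in SUDHL6 than in HT by a wide margin, HDAC9 was modestly higher in SUDHL6, and the other 4 genes measured on their own were nearly level. The difference of HDAC9 lay within the range of most olfactory receptor genes. Of the 6 genes, 1 was counted as higher in SUDHL6, against 3.5% of all genes, and 1 as higher in HT, against 4.62% of all genes. The genes were picked in view of these values, so nothing is read from these counts. The median difference, SUDHL6 minus HT, was -0.03 over the 6 genes and -0.04 over all genes.

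**Figure D1:**
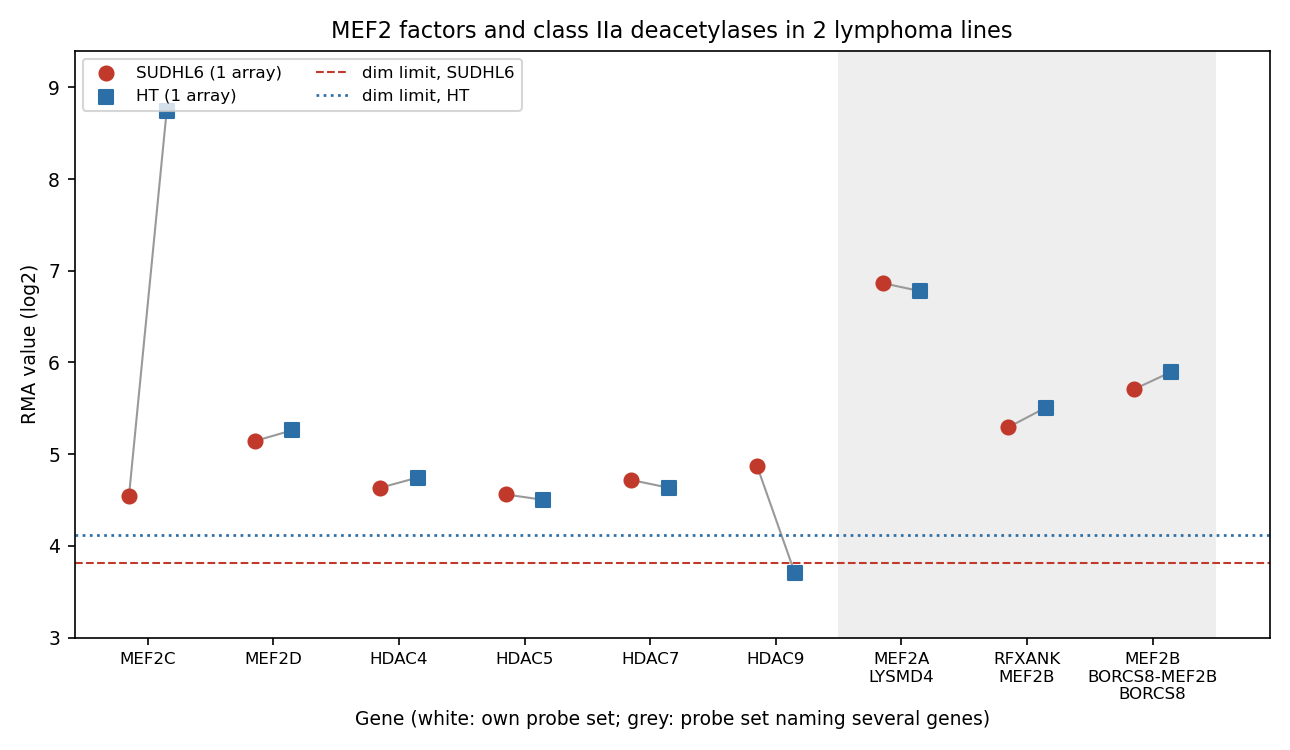
RMA values (log2, vertical axis) of 6 genes with a probe set of their own and of 3 probe sets that name several genes (grey), with 1 point per array and no error bars because each line had 1 array. MEF2C is far lower in SUDHL6 (circle, 4.55) than in HT (square, 8.74), HDAC9 falls below the HT dim limit in HT, and the other points of a pair lie close together.

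MEF2C, on chromosome 5, stood at 4.55 in SUDHL6 and 8.74 in HT. The log2 difference of -4.20 made it 18.4-fold lower in SUDHL6 and placed it 22nd of 14232 genes in that direction. MEF2C was above the dim limit in both lines. The fold is nevertheless not secure as a ratio of transcript, because muscle genes such as MYOD1 (4.40 in SUDHL6, 4.53 in HT) and ACTA1 (4.99 in SUDHL6, 5.05 in HT) also reached the dim limit, so a value of this size need not mean that MEF2C was expressed in SUDHL6.

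MEF2D, a widely expressed family member, differed by -0.12, with 5.14 in SUDHL6 and 5.26 in HT. MEF2A, which is known for its role in muscle and neurons, shared its probe set with its neighbour LYSMD4. That probe set differed by 0.09, with 6.87 in SUDHL6 and 6.78 in HT. A probe set for LYSMD4 alone lay below the dim limit in both lines, at 3.70 in SUDHL6 and 3.73 in HT. The germinal centre factor MEF2B was covered by 2 shared probe sets. The first also names BORCS8 and the BORCS8-MEF2B readthrough transcript, and held 5.71 in SUDHL6 against 5.90 in HT. The second also names RFXANK, and held 5.29 in SUDHL6 against 5.51 in HT. The differences of -0.19 and -0.22 were small, but which of the named genes gave the signal cannot be read from these probe sets. None of these probe sets was counted as different.

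Among the class IIa deacetylases, HDAC9, on chromosome 7, stood at 4.87 in SUDHL6 and 3.71 in HT. HDAC9 is known for a splice form that lacks the catalytic domain and still binds MEF2, and these gene-level values do not separate its forms. The measured difference was 1.16, but the HT value lay below the dim limit. Against that level HDAC9 was at least 1.69-fold higher in SUDHL6, a difference of 0.76, which is under the threshold. The SUDHL6 value was itself below that of the muscle gene ACTA1 in SUDHL6 (4.99). It need not mean that HDAC9 was expressed in SUDHL6, so this fold is not secure as a ratio of transcript. The measured 1.16 also lay within the middle 95% of the olfactory receptor differences, which ran from -1.03 to 1.26. Of all genes, 6.9% differed by as much as HDAC9 in either direction, compared with 0.316% for MEF2C. Among genes whose higher value reached the dim limit, these shares were 9.64% and 0.478%.

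HDAC4, a regulator of cartilage growth in mice, stood at 4.63 in SUDHL6 and 4.75 in HT. HDAC5, which restrains growth of the heart in mice, stood at 4.56 in SUDHL6 and 4.50 in HT. HDAC7, which is abundant in lymphoid cells and represses genes of other lineages in mouse B cell precursors, stood at 4.72 in SUDHL6 and 4.63 in HT. All 3 reached the dim limit in both lines. Their differences of -0.11, 0.06 and 0.08 were smaller than those of most genes, since 75.6%, 86.2% and 81.3% of all genes differed by at least as much. The dim limit also limits these values, as it does for MEF2C in SUDHL6.

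**Figure D2:**
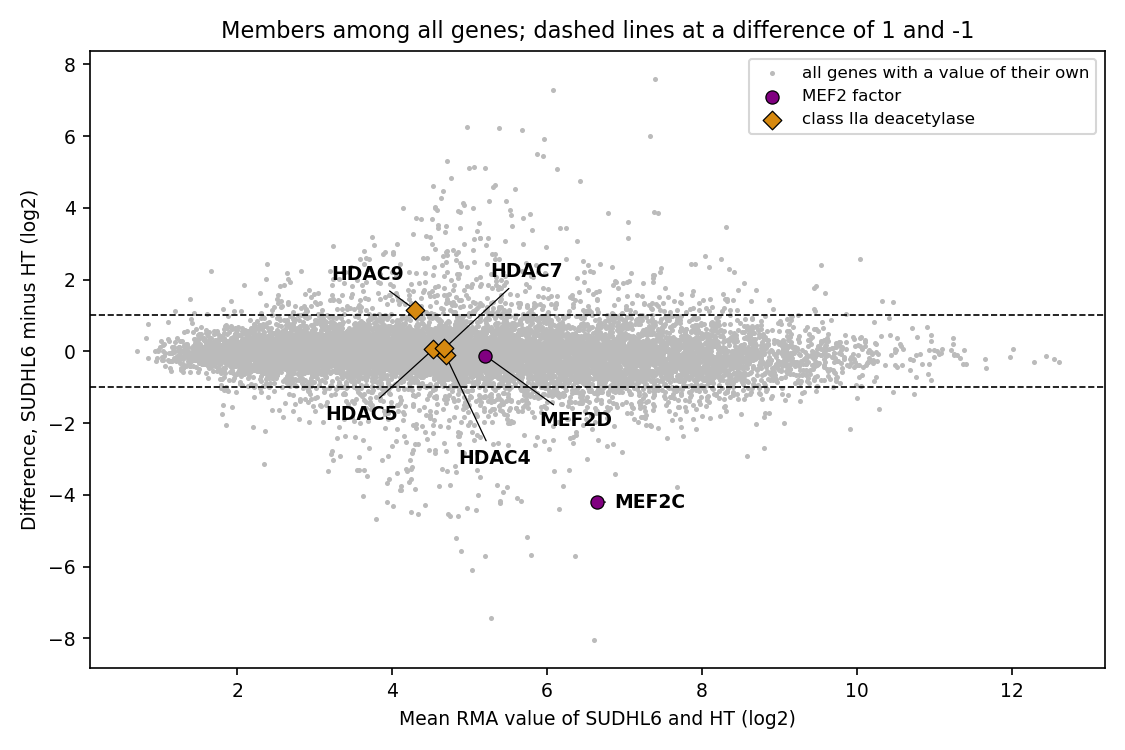
Difference, SUDHL6 minus HT (log2, vertical axis), against the mean of both arrays (log2, horizontal axis) for 14232 genes (grey) and the 6 members with a probe set of their own (circles, MEF2 factors; diamonds, class IIa deacetylases). MEF2C (-4.20) lies at the lower edge of the cloud, HDAC9 (1.16) just above the dashed line at 1, and the other 4 near 0.

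The promoter windows of the members were searched for the MEF2 consensus, a pyrimidine followed by TA, a run of A or T bases, TA and a purine, which reads the same on both strands. The windows are those of RefSeq (GRCh38.p14), 250 bases before to 50 after each annotated start, and 7 of the 8 genes had 1 or more, 23 in all. HDAC5 is not among them. The consensus was found in 1 of 7 windows of MEF2C, in 1 of 5 of HDAC9 and in 1 of 3 of MEF2A, and in 0 of the windows of MEF2B, MEF2D, HDAC4 and HDAC7. MEF2C and HDAC9 are the genes counted as different, in opposite directions. MEF2A also held a match, and the probe set it shares with LYSMD4 differed by 0.09, so nothing is read from this overlap. In mouse muscle MEF2C and HDAC9 are known to be activated by MEF2 itself, which was not tested here. The 3 windows with a match are shown. They are given up to the start of transcription, or to the end of the match where that lies beyond it, 5′ to 3′ on the gene's strand, with the match in capitals.
MEF2C, chr5:88824345-88824594, minus strand: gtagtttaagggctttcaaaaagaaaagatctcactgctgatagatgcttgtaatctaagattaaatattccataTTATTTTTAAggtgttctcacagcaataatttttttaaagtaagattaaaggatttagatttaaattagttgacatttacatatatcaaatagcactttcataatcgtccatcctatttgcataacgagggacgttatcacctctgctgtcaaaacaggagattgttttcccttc
HDAC9, chr7:18086575-18086826, plus strand: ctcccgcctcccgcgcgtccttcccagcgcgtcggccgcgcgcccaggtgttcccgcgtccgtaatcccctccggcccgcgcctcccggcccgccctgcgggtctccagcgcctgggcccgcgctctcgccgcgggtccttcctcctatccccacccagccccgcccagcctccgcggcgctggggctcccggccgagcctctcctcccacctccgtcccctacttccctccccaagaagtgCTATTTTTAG
MEF2A, chr15:99565734-99565983, plus strand: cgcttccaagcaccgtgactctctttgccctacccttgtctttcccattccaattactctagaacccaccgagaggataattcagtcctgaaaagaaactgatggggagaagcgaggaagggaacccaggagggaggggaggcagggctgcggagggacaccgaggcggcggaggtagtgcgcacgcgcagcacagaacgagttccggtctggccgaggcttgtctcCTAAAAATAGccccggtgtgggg

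The match in HDAC9, CTATTTTTAG, spans the annotated start, from base -8 to base 2, in a window with 75% G and C. The match in MEF2C, TTATTTTTAA, lies at bases -175 to -166 of the third window, which has 32% G and C. The match in MEF2A, CTAAAAATAG, lies at bases -23 to -14. Across the genome 2.99% of 35116 windows held the consensus, and 15.7% of genes with 5 windows and 10.0% of genes with 7 windows held it in at least 1 of them. The share for genes with as many windows as MEF2A was not computed. The arrays do not show which start either line used, and a match is not evidence of binding. Of 336 genes with a value and the consensus in a window, 13 were higher in SUDHL6 and 14 in HT, 8.04% together, against 8.27% of all 11386 genes with a value and a window. Their median difference was -0.05, against -0.04 for those 11386 genes.

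The neighbours of MEF2C on chromosome 5 had differences between -1.03 and 0.75. Of the 3 genes with a value on each side, 1 was counted as different, POLR3G, a subunit gene of RNA polymerase III, at 5.16 in SUDHL6 and 6.19 in HT. Its difference was -0.96 after quantile normalization and -0.95 after loess, under the threshold. TMEM161B and CETN3, the nearest on either side, stood at 7.07 and 6.32 in SUDHL6 and at 7.68 and 6.23 in HT. The median difference of the 6 neighbours was -0.23. Around HDAC9, AHR, which encodes the aryl hydrocarbon receptor, was the third gene on one side and was 4.18-fold higher in SUDHL6, at 6.37 in SUDHL6 and 4.31 in HT. The nearest neighbours of HDAC9 were TWIST1 (3.87 in SUDHL6, 3.55 in HT) and PRPS1L1, which held the same value of 1.04 on both arrays. TWIST1 in HT and PRPS1L1 in both lines lay below the dim limit. The other 4 members had neighbours with median differences between -0.23 and -0.01.

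**Figure D3:**
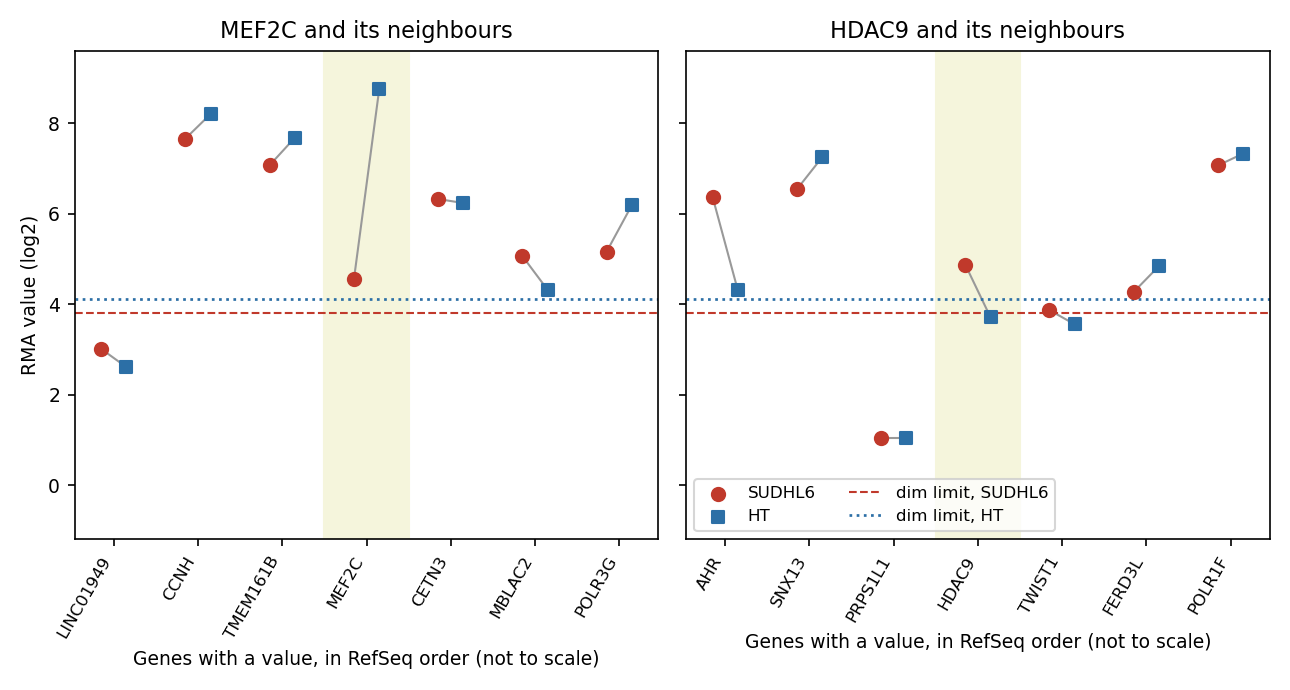
RMA values (log2, vertical axis) of MEF2C (left) and HDAC9 (right), shaded, with the 3 genes with a value on each side in RefSeq order, 1 point per array (circles, SUDHL6; squares, HT). The gap at MEF2C is wider than at any of its 6 neighbours, while AHR, with a difference of 2.06, has a wider gap than HDAC9.

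The genes whose difference was closest to that of MEF2C were FAIM, C1orf21, USP44, LAMP3 and IL18. Likeness was the gap between a gene's difference and that of MEF2C, over the 2 arrays, and ran from 0.01 for FAIM to 0.09 for IL18. LAMP3, a lysosomal membrane protein of mature dendritic cells, stood at 3.30 in SUDHL6 and 7.47 in HT. IL18, an inflammatory cytokine, stood at 2.29 in SUDHL6 and 6.57 in HT. All 5 lay below the dim limit in SUDHL6, unlike MEF2C. With 1 array per line, this likeness rests on 1 difference per gene and does not show shared regulation.

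Of 19 kinases in the signals that reach class IIa deacetylases, 17 had a value, and some differed in each direction. CAMK1D, a calcium-dependent kinase, was at least 9.06-fold higher in SUDHL6, at 7.29 in SUDHL6 and 3.81 in HT. PRKD3, a protein kinase D, was 2.52-fold higher in SUDHL6, at 8.16 in SUDHL6 and 6.82 in HT. Of the 3 salt-inducible kinases, which also hold class IIa deacetylases in the cytoplasm, SIK3 and SIK2 differed in the other direction. SIK3 was 4.12-fold lower in SUDHL6, at 6.31 in SUDHL6 and 8.35 in HT, and SIK2 was 2.64-fold lower, at 5.66 in SUDHL6 and 7.06 in HT. SIK1, at 4.92 in SUDHL6 and 5.36 in HT, did not reach the threshold. CAMK2D was 2.05-fold lower, at 7.22 in SUDHL6 and 8.26 in HT, but its difference of -1.03 became -0.91 after quantile normalization and -0.92 after loess, under the threshold. The list thus had 2 genes higher in SUDHL6 and 3 higher in HT (2 under those scalings), where 8.12% of all genes differed in either direction, and its median difference was -0.32. The list was chosen with earlier results of these arrays known, so nothing is read from its counts. CAMK1, another calcium-dependent kinase, did not share the difference of CAMK1D. It stood at 5.83 in SUDHL6 and 6.68 in HT. CAMK4, at 3.35 in SUDHL6 and 2.39 in HT, lay below the dim limit in both lines, so its difference cannot be read.

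The 14-3-3 proteins, which hold phosphorylated deacetylases outside the nucleus, had 5 of 7 genes with a value and 0 that differed, with YWHAH at 8.93 in SUDHL6 and 9.21 in HT and YWHAB at 8.64 in SUDHL6 and 9.39 in HT. In the calcineurin route, a calcium-driven phosphatase pathway that also feeds MEF2, 11 of 13 genes had a value. RCAN2, a calcineurin regulator, was 2.54-fold higher in SUDHL6, at 6.12 in SUDHL6 and 4.78 in HT. NFATC2, a calcium-responsive transcription factor, was 2.35-fold lower in SUDHL6, at 7.24 in SUDHL6 and 8.47 in HT. In the MAP kinase route, which phosphorylates the activation domain of MEF2 factors, 9 of 11 genes had a value and 1 differed. MAPK13, a p38-type kinase, was 2.13-fold higher in SUDHL6, at 5.33 in SUDHL6 and 4.24 in HT. The median differences of these lists were -0.28, 0.07 and 0.10. In lists this short, against 8.12% of all genes counted as different, these counts do not set the lists apart.

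Among the co-repressors that class IIa deacetylases bind, 9 of 13 genes had a value and 1 differed. TBL1X, a subunit of the NCOR complex, was at least 2.61-fold higher in SUDHL6, at 5.50 in SUDHL6 and 3.67 in HT. Its close relative TBL1XR1 stood at 9.07 in SUDHL6 and 8.45 in HT, and HDAC3, the active deacetylase of the complex, at 6.84 in SUDHL6 and 7.11 in HT. The list of MEF2 co-activators and other MADS-box genes had 8 of 10 genes with a value and 0 that differed. In it, the acetyltransferase gene KAT2B stood at 7.08 in SUDHL6 and 7.27 in HT, and NCOA2, a nuclear receptor co-activator, at 7.34 in SUDHL6 and 8.30 in HT. The counts of 1 in 9 and 0 in 8 are near the 8.12% of all genes.

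Genes that MEF2 factors are known to activate were examined as separate lists for muscle and for other tissues. Of 14 targets outside muscle, 11 had a value, 5 reached the dim limit and 1 differed. EGR1, an immediate early transcription factor, was 2.50-fold higher in SUDHL6, at 6.99 in SUDHL6 and 5.67 in HT. BCL6, the master repressor of germinal centre B cells, differed by -0.80, under the threshold, with 8.10 in SUDHL6 and 8.90 in HT. KLF2, a factor of lymphocyte quiescence, stood at 5.42 in SUDHL6 and 5.88 in HT. The nuclear receptor gene NR4A1 stood at 3.97 in SUDHL6 and at 3.96 in HT, where it lay below the dim limit. Of 14 muscle targets, 12 had a value, 5 reached the dim limit and 0 differed, with MYOG at 5.75 in SUDHL6 and 5.11 in HT and ACTA1 as given above. The median difference was 0.00 for the targets outside muscle and -0.03 for the muscle targets. With most of these targets below the dim limit and 8.12% of all genes counted as different, nothing is read from either count. The germinal centre marker SERPINA9 was lower in SUDHL6 by a margin like that of MEF2C, at 3.96 in SUDHL6 and 8.35 in HT, whereas RGS13 stood at 10.65 in SUDHL6 and 10.21 in HT and MME at 8.89 in SUDHL6 and 8.39 in HT.

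The other histone deacetylases differed by less than 1 without exception among the 7 genes. HDAC1, HDAC2 and HDAC3, of class I, had differences of -0.23, -0.26 and -0.27, and HDAC8 of the same class had 0.06. HDAC6 and HDAC10, of class IIb, had differences of 0.34 and 0.02. HDAC11 lay below the dim limit in both lines, at 2.49 in SUDHL6 and 2.63 in HT. HDAC9 was thus the deacetylase gene with the largest measured difference among the 11 with a value, with the bound given above.

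**Figure D4:**
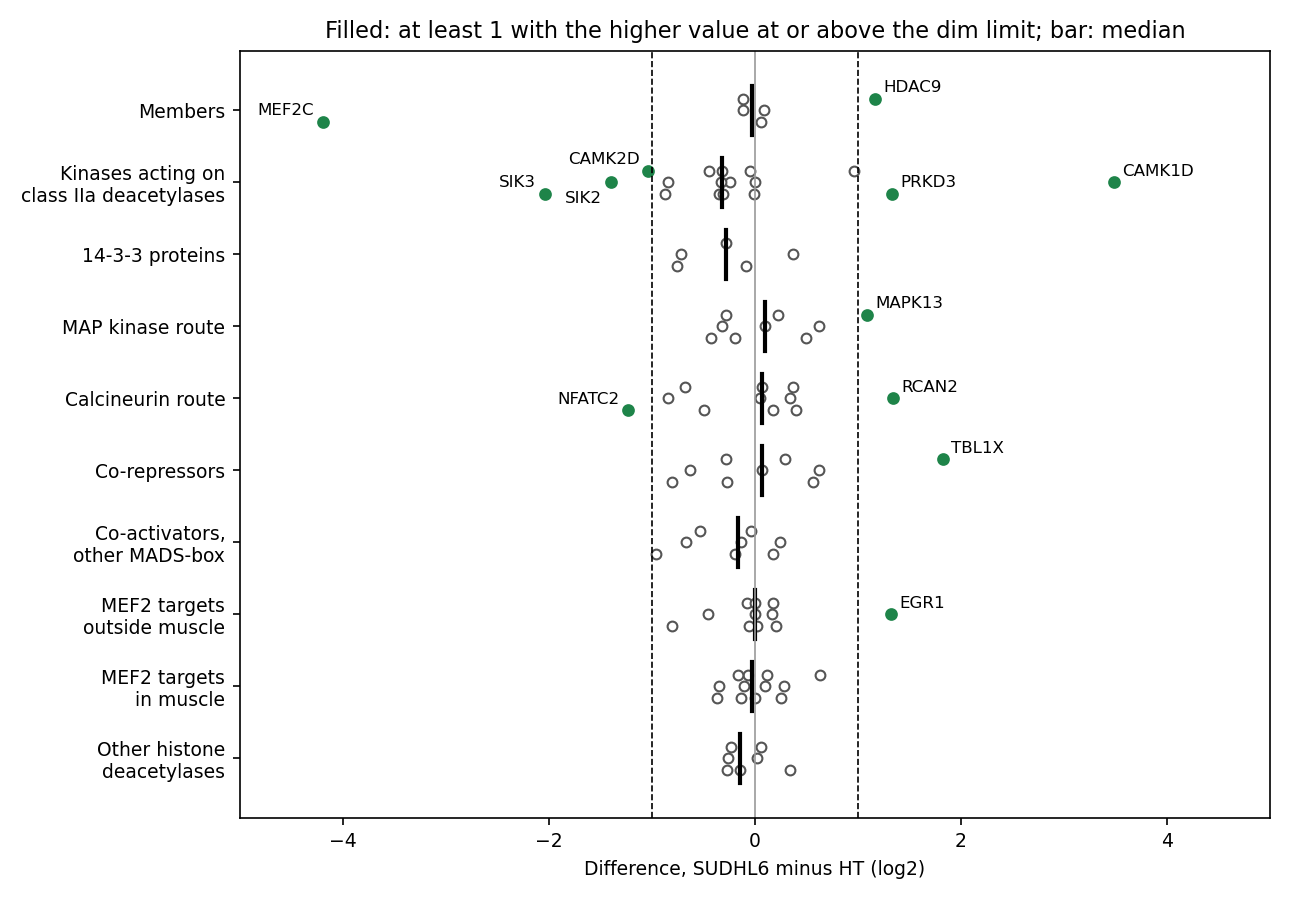
Difference, SUDHL6 minus HT (log2, horizontal axis), for each gene with a value in the members (top) and in 9 lists around MEF2, 1 point per gene, filled where the gene was counted as different, a black bar at each list's median and dashed lines at 1 and -1. MEF2C lies farthest left at -4.20 and CAMK1D farthest right at 3.49, and the medians of the lists lie between -0.32 and 0.10.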

How the data were processed

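Total RNA of 2 cell lines, 1 array each, was measured on Affymetrix exon arrays. The authors deposited log2 values made with RMA in Affymetrix Expression Console, per the submitters' processing notes. RMA compresses small differences between dim genes. Software versions, RMA settings and the build are not given in these sources. There were 22011 probe sets, with medians of 4.57 in SUDHL6 and 4.58 in HT. The platform annotation gave 1 gene for 14432 of them and several for 2408, leaving 5171 unnamed here. Gene symbols were updated by gene number to RefSeq (GRCh38.p14), whose gene order gave the neighbours. Where a gene had several probe sets of its own, the one with the highest mean was used. Differences were SUDHL6 minus HT, and folds are 2 to the power of the difference, written as "at least" where the lower value was raised to the dim limit. Named genes were the members, up to 4 list genes past the threshold or otherwise the 2 with the highest mean, the 7 other deacetylases, neighbours, and the 5 genes nearest to MEF2C. CAMK2D, CAMK1, CAMK4, SIK1, TBL1XR1, BCL6, KLF2, NR4A1, PAX5, CD79A, MYOD1 and ACTA1, further markers and LYSMD4 were named after their values were seen. The members and lists were chosen with earlier results of these data known. Scaling, dim limit, threshold and probe set choice were varied. Python 3.11.15, pandas 2.3.3 and statsmodels 0.14.6 were used.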

Additional observations from a re-analysis of the deposited data

How the results depend on the processing

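The direction of MEF2C and its place past the threshold held under all 10 alternatives, with a difference between -4.20 and -4.08. Only quantile normalization, loess and centring on the median changed this difference. The other alternatives could not change it, because MEF2C had 1 probe set and passed the dim limit in both lines. HDAC9 did not hold under 2 of the 10 alternatives. When dim values were raised to the dim limit, its difference was 0.76, under the threshold, because the HT value lay below that limit, and 0 members were then higher in SUDHL6. With a threshold of 2, its 1.16 also fell short and the count was again 0. HDAC9 kept its direction in every alternative, with differences between 0.76 and 1.18. MEF2D, HDAC4, HDAC5 and HDAC7 kept their direction and stayed under the threshold, within -0.12 and 0.11. Their differences, like that of MEF2C, changed only with quantile normalization, loess and centring. Over all genes, a threshold of 0.5 gave 1233 higher in SUDHL6 and 1835 in HT, and a threshold of 2 gave 167 in SUDHL6 and 154 in HT. With values raised, the median over all genes was -0.30 by construction, since the dim limits of the lines differ by that much. Of the 530 values recomputed, the counts and medians of gene lists gave 398 that stayed close and 22 that moved, counts by over 1.5-fold. Of these 22, 20 came with the other thresholds. Including probe sets that name several genes moved the other 2, both through DES on a probe set shared with DNAJC15. Quantile normalization and loess each took CAMK2D and POLR3G under the threshold, and the other regulators, targets, markers and neighbours counted as different stayed past it under both. No paired analysis was possible because each line had 1 array. Signal near the dim limit limits the precision for MEF2C in SUDHL6 and for MEF2D and the deacetylases in both lines.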
